A study of Mus musculus with 12 samples.

Results

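Classical MHC class I molecules and the machinery that supplies them with peptides were followed in mouse lung across adult life, through 10 genes chosen by symbol from the 55487 genes of the deposited count table. They are H2-K1 and H2-D1, B2m, Tap1, Tap2, Tapbp, Psmb8, Psmb9, Psmb10 and Nlrc5, and each of the 10 was found once and had enough counts to be tested. Whole lungs came from C57BL/6NCr mice, a C57BL/6 substrain, aged 6, 12, 20 or 30 months (6M, 12M, 20M and 30M), with 3 poly-A RNA sequencing libraries per age. The labels name no genotype, treatment or sex beyond the strain, and do not say that each library is a separate animal, so a p-value here weighs differences against the spread among libraries, which may be technical. Libraries are named by age and replicate number.

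Class I molecules show fragments of a cell's own proteins to CD8 T cells and are made by nearly all nucleated cells. The proteasome cuts proteins into peptides, the TAP transporter carries them into the endoplasmic reticulum, and tapasin holds empty class I molecules beside TAP until a peptide binds. Interferons, above all interferon gamma, induce most of these genes, including 3 catalytic subunits (Psmb8, Psmb9 and Psmb10) that replace constitutive ones to form the immunoproteasome. Nlrc5 is a transcriptional coactivator of class I promoters, where it acts with RFX and NF-Y proteins bound to the X and Y boxes. In lung, leukocytes and endothelium are known for high class I levels.

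Of the 10 genes, 7 lie on chromosome 17 (GRCm38), in or near the H2 complex, within 1351601 bases. H2-K1 is at chr17:33996017-34000347 on the minus strand and H2-D1 at chr17:35262730-35267499 on the plus strand. Tapbp is at chr17:33915899-33929292 on the plus strand. Psmb9 (chr17:34181987-34187764, minus strand), Tap1 (chr17:34187553-34197225), Psmb8 (chr17:34197721-34201454) and Tap2 (chr17:34203527-34216321, these 3 on the plus strand) stand side by side. The models of Psmb9 and Tap1 point away from each other and overlap by 212 bases, Psmb8 begins 495 bases after Tap1 ends, and Tap2 begins 2072 bases after Psmb8. Outside that chromosome, B2m is at chr2:122147686-122153083, plus strand, Psmb10 at chr8:105935735-105938444, minus strand, and Nlrc5 at chr8:94434356-94527272, plus strand. All 10 are protein coding.

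The promoters of the 3 genes that build the class I molecule are shown because they share 1 arrangement of motifs. In RefSeq's GRCm38.p6 windows, which 8 of the 10 genes have (Tap2 and Nlrc5 were not matched), the 250 bases before the start site were searched on both strands. In H2-K1, H2-D1 and B2m alone among those 8, TGACG, part of the X box region, and ATTGG, the reversed CCAAT core of the Y box, stood exactly 20 bases apart on the gene's own strand. The 2 motifs are in capitals below, 5′ to 3′.
H2-K1, chr17:34000359-34000388, minus strand: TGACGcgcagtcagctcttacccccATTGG
H2-D1, chr17:35262993-35263022, plus strand: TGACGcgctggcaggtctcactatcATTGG
B2m, chr2:122147609-122147638, plus strand: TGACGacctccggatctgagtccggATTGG
Between H2-K1 and H2-D1 the 30 bases differ at 7 positions, between H2-K1 and B2m at 17 and between H2-D1 and B2m at 18. The pair at this spacing was found in 30 of 32851 windows of the same length (0.0913%), and at a spacing of 15 to 25 bases in 125 (0.381%), with the same 3 of the 8 genes holding it. The spacing of 20 bases was chosen after the sequences had been seen. H2-M3, a nonclassical class I gene, is among the other genes with it.

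Upstream of that module H2-K1 and H2-D1 carry a kappaB consensus (the first run of capitals) and, reversed, the interferon regulatory factor element AANNGAAA (the second).
H2-K1, chr17:34000430-34000458, minus strand: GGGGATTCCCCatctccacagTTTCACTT
H2-D1, chr17:35262923-35262951, plus strand: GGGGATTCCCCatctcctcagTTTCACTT
These 29 bases differ at 1 position. B2m holds both elements too, in the other order, as its window shows with the AANNGAAA element, the kappaB consensus and the TGACG and ATTGG pair in capitals in that order.
B2m, chr2:122147437-122147685, plus strand: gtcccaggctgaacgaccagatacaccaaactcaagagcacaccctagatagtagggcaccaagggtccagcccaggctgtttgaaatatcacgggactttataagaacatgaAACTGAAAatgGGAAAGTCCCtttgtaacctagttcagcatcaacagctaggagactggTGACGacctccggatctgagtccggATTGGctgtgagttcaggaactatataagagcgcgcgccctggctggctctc
The H2-K1 window shows the kappaB consensus, the reversed AANNGAAA element and the pair.
H2-K1, chr17:34000348-34000597, minus strand: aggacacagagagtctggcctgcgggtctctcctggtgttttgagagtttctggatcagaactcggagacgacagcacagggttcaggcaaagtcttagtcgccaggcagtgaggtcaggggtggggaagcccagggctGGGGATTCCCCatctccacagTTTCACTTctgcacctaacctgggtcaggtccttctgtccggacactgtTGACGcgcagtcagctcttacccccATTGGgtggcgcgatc
AANNGAAA was present in 21.3% of all windows and the kappaB consensus in 7.25%, and neither was found in the windows of Tap1, Tapbp, Psmb8, Psmb9 or Psmb10. The gamma-activated element TTCNNNGAA (7.02% of windows) was found in Psmb8 only, and CCAAT (33.8%) in 6 of the 8, in all but Psmb8 and Psmb10. These matches are descriptions of letters, not of bound sites. The RefSeq start of H2-D1 lies 364 bases inside the model of the count table, that of Psmb9 434, that of Psmb8 474 and that of Tapbp 3579 bases inside, so a window need not be the promoter used in lung.

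Per length of their joined exons, the 10 genes spanned a wide range of levels at 6M. The joined length takes in every annotated exon, 3381 bases for Psmb8 and 3660 for Psmb9. It can exceed the length of the transcripts present in lung, so the order between genes depends on the annotation. B2m, the invariant light chain, was highest at 959 ± 104 CPM per kilobase (SD, n = 3), 280-fold above Nlrc5. CPM are counts per 1e+06 counts, scaled by the trimmed mean of M-values (TMM). H2-D1 followed at 514 ± 15 CPM per kilobase and H2-K1 at 389 ± 41.4, and these neighbours did not overlap. Tapbp was at 63.4 ± 3.47, Psmb10 at 34.1 ± 4.26, Tap2 at 23.2 ± 1.93 and Psmb8 at 17.4 ± 2.02 CPM per kilobase. Psmb9 at 11.1 ± 2.32 and Tap1 at 9.61 ± 2.66 differed by less than their spread, and Nlrc5 was lowest at 3.43 ± 1.28. At 30M the order was the same except that Psmb8, at 40.7 ± 6.86 CPM per kilobase, and Tap2, at 39.5 ± 4.27, had changed places within their spread. Together the 10 genes took 0.388% ± 0.0372 of all counts at 6M, 0.476% ± 0.0352 at 12M, 0.467% ± 0.0289 at 20M and 0.705% ± 0.0420 at 30M (SD, n = 3).

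From 6M to 30M, 7 of the 10 genes rose and none fell, by the quasi-likelihood test of edgeR with Benjamini-Hochberg adjustment over all 18407 tested genes and a threshold of 0.05, which called 1.96% of all genes (1.93% as higher and 0.0272% as lower). H2-K1, H2-D1, B2m, Tap1, Tap2, Psmb8 and Psmb9 passed, by 1.65-fold to 2.37-fold, and Tapbp, Psmb10 and Nlrc5 did not (adjusted p = 0.105, 0.0608 and 0.0773). For all 10 every 30M library lay above every 6M library in CPM, which held for 9.89% of tested genes. The median log2 fold change of the 10 was 0.97, against 0.00284 over all tested genes. In whole lung a larger number of cells that express these genes and more RNA per cell cannot be told apart. All 10 had an unadjusted p under 0.05, as did 11.6% of all genes. DESeq2 called 10 of 10, with 4.09% of all genes, and limma voom 10 of 10, with 3.23%. By edgeR the count fell to 2, Tap1 and Psmb8, without library 6M_202 (0.642% of all genes) or without 6M_203 (0.366%).

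Some features of the libraries bear on the values below. Totals ran from 12152066 to 15058628 counts. Relative to the 6M mean, expression followed transcript GC content across genes with Spearman rho of 0.323 to 0.462 in 20M_221, 20M_222 and 30M_220, 0.226 in 12M_208 and -0.0852 to 0.05 in the other 8, genes not being independent replicates. By GC content B2m lies at the 6.89th percentile of tested genes and the other 9 between the 63.0th and the 92.0th. Library 20M_222 held skeletal muscle RNA (Acta1 at 1040 CPM, at most 2.13 elsewhere). Surfactant genes that define lung were present throughout, Sftpc at 22100 ± 1780 CPM at 6M and 17000 ± 5750 at 30M. Its 30M libraries held 21000, 19500 and 10400 CPM, the last being 30M_220, and 20M_221 and 20M_222 held 11700 and 12600. With each library's GC trend removed 6 of the 10 genes were called at 30M against 6M (2.16% of all genes), H2-D1 being lost. The 30M and 6M libraries of Psmb10 then overlapped. With the 3 libraries of the steepest trend left out together 8 were called, Psmb10 being gained.

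**Figure D1:**
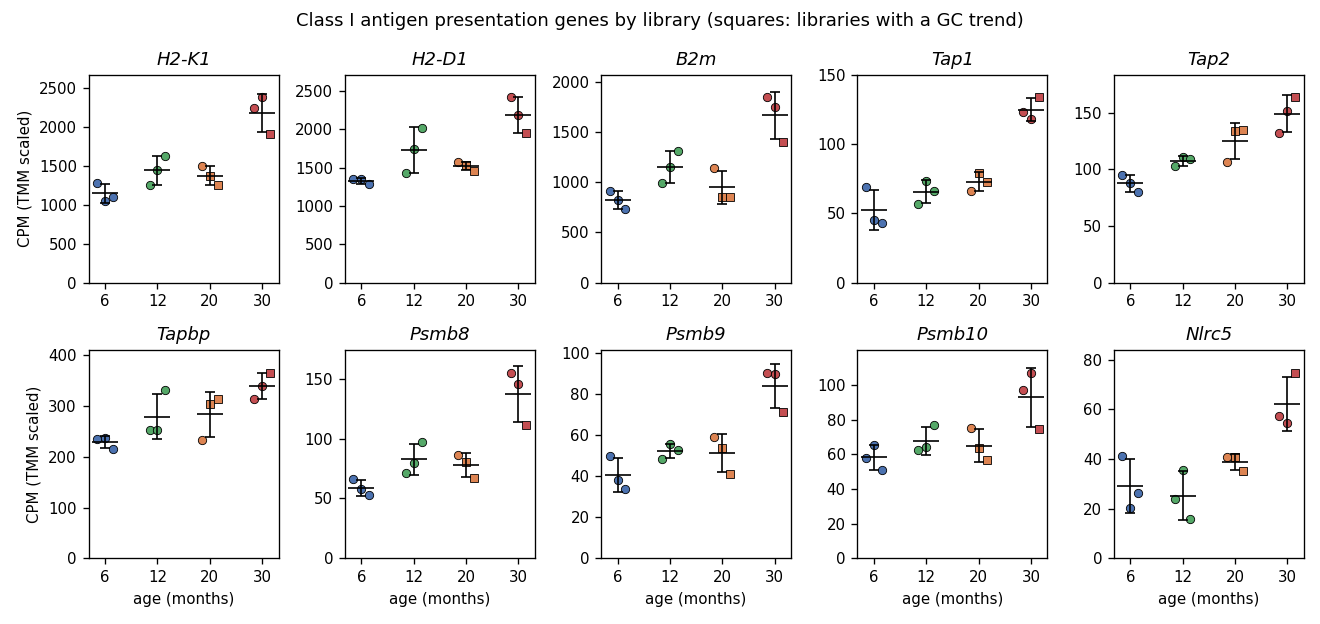
Each panel shows 1 gene, with age in months on the x axis and CPM on the y axis from 0. Points are libraries, squares the 3 libraries with a GC trend, and bars the mean ± SD of 3 libraries. In all 10 panels every 30M point lies above every 6M point.

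The class I heavy chains H2-K1 and H2-D1, which bind the peptide and meet the T cell receptor, were both higher at 30M. H2-K1 stood at 1280, 1050 and 1100 CPM in the 6M libraries (6M_201, 6M_202 and 6M_203, the order used throughout). At 12M (12M_206, 12M_207 and 12M_208) it had 1250, 1450 and 1620 CPM, at 20M (20M_213, 20M_221 and 20M_222) 1500, 1370 and 1250 CPM, and at 30M (30M_216, 30M_218, then 30M_220) 2240, 2380 and 1910 CPM. The 30M libraries were above all others and the 12M and 20M libraries overlapped, with 30M_220 the lowest at 30M. The difference was 0.93 ± 0.17 in log2 (SE, edgeR, adjusted p = 0.0128), or 1.90-fold, and was not called without 6M_202 or 6M_203 (highest adjusted p = 0.101). H2-D1 had 1350, 1350 and 1280 CPM in the 6M libraries, 1430, 1740 and 2020 at 12M, 1570, 1530 and 1460 at 20M and 2420, 2180 and 1950 at 30M, where 30M_220 was below 12M_208. Between 30M and 6M this was a log2 difference of 0.72 ± 0.16 (edgeR, adjusted p = 0.0413). Its 6M libraries were closer together than those of H2-K1, yet its call was lost in 8 of the 12 fits that leave out 1 library (highest adjusted p = 0.227). The log2 ratio of H2-K1 to H2-D1 was -0.22 ± 0.15 at 6M and -0.01 ± 0.12 at 30M with overlapping libraries, and an exact permutation test over the 4 ages gave p = 0.0905. Of the 100-base stretches in their transcripts, 0.957% for H2-K1 and 3.59% for H2-D1 also occur in other class I genes or models, and of the 50-base stretches 9.63% and 12.8%. The read length is not known here, so the share of their reads that cannot be assigned with certainty was not measured.

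B2m, whose product pairs with every class I heavy chain, had 914, 825 and 735 CPM in the 6M libraries, 990, 1150 and 1310 at 12M, 1140, 855 and 856 at 20M and 1850, 1750 and 1400 at 30M. The 20M libraries 20M_221 and 20M_222 lay within the 6M range. B2m rose by 1.01 ± 0.18 in log2 between 6M and 30M, 2.02-fold (edgeR, adjusted p = 0.0129), and its call too was lost without 6M_202 or 6M_203 (highest adjusted p = 0.109). Against the sum of H2-K1 and H2-D1 the log2 ratio of B2m was -1.59 ± 0.09 at 6M, -1.46 ± 0.02 at 12M, -1.62 ± 0.17 at 20M and -1.39 ± 0.06 at 30M. The 30M libraries lay above the 6M libraries, but the exact permutation test over the 4 ages did not pass (p = 0.0684, adjusted over 6 ratios 0.0821). Removing the GC trend raised the value of B2m in 30M_220 and lowered those of the other 9: its log2 level over the 6M mean went from 0.77 to 1.04, and that of H2-K1 from 0.75 to 0.57.

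Tap1 and Tap2 encode the subunits of the peptide transporter. Tap1 had 69.4, 45.5 and 43 CPM in the 6M libraries, 57, 73.6 and 65.9 at 12M, 66.1, 79.5 and 73 at 20M and 123, 118 and 134 at 30M. Library 6M_201 lay among the 12M and 20M libraries, and the 30M libraries stood far above all others. Between 6M and 30M Tap1 had the largest log2 difference of the 10, 1.25 ± 0.18 or 2.37-fold (edgeR, adjusted p = 0.00367), and was called in each of the 12 fits without 1 library (highest adjusted p = 0.0323). Tap2 had 94.8, 87.8 and 80.2 CPM in the 6M libraries, 103, 111 and 109 at 12M, 107, 134 and 135 at 20M and 132, 152 and 164 at 30M, so that the 20M and 30M libraries overlapped. Its 30M mean exceeded the 6M mean by a log2 difference of 0.77 ± 0.13 (edgeR, adjusted p = 0.0105) and was not called without 6M_202 or 6M_203 (highest adjusted p = 0.0951). The log2 ratio of Tap1 to Tap2 was -0.77 ± 0.27 at 6M, -0.73 ± 0.13 at 12M, -0.78 ± 0.10 at 20M and -0.25 ± 0.13 at 30M. The 30M libraries stood above all others, and 6M_201, at -0.45, came nearest to the lowest 30M value of -0.36. The exact permutation test over the 4 ages gave p = 0.0275, adjusted over 6 ratios 0.0412. It did not pass without the 3 libraries with a GC trend, which leaves 20M_213 alone at 20M. A Gm15821 model and Gm20496, both antisense to Tap2, share 4.99% of its 100-base stretches. Of its 50-base stretches 11.6% occur elsewhere.

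Tapbp, encoding tapasin, did not pass the test at 30M against 6M. Its 6M libraries averaged 230 ± 12.6 CPM (SD, n = 3) with 238 as the highest, its 12M libraries held 253, 254 and 331 CPM, its 20M libraries 233, 304 and 315 and its 30M libraries 314, 339 and 366. The 30M libraries overlapped those of 12M and of 20M. Against 6M there was a log2 difference of 0.56 ± 0.16 (edgeR, adjusted p = 0.105), with no overlap between the ages. It was called by DESeq2 and by limma voom and in none of the 12 fits without 1 library. With the GC trend removed its log2 level in 30M_220 went from 0.67 to 0.45 over the 6M mean. Of its 100-base stretches 14.8%, and of its 50-base stretches 23.2%, also occur in other annotated transcripts, among them those of the antisense gene Gm19412, and its model overlaps that of Zbtb22 on the same strand by 3422 bases.

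The immunoproteasome subunits Psmb8 and Psmb9 rose and Psmb10 did not pass the test. Psmb8, which takes the place of Psmb5, had 66.2, 57.5 and 52.7 CPM in the 6M libraries, 71.6, 79.5 and 97 at 12M, 86.6, 80.4 and 66.7 at 20M and 155, 146 and 111 at 30M. Its log2 difference of 1.23 ± 0.17, 2.34-fold, had the smallest adjusted p of the 10 genes (edgeR, 0.00300) and was called in each of the 21 alternative fits, as was that of Tap1. Psmb9, which takes the place of Psmb6, had 50.1, 38.3 and 33.6 CPM in the 6M libraries, 48.7, 55.8 and 52.7 at 12M, 59, 53.9 and 41.1 at 20M and 90.6, 89.9 and 71.6 at 30M, a log2 difference of 1.05 ± 0.18 (edgeR, adjusted p = 0.00893), not called without 6M_202 or 6M_203 (highest adjusted p = 0.0699). Psmb10, which takes the place of Psmb7, had 57.9, 65.6 and 51.1 CPM in the 6M libraries, 62.3, 63.9 and 77.1 at 12M, 75, 63.6 and 56.5 at 20M and 96.9, 107 and 74.3 at 30M, a log2 difference of 0.67 ± 0.17 (edgeR, adjusted p = 0.0608) that passed without 20M_213 or 30M_220. In all 3 genes 30M_220 was the lowest 30M library, and for Psmb10 it was only a little above 6M_202. With the GC trend removed Psmb10 in 30M_220 was below 6M_202, at 0.13 and 0.17 in log2 over the 6M mean. Its adjusted p at 30M against 6M was then 0.198 (edgeR). The 30M libraries of Psmb8 and Psmb9 were above all libraries of the other ages, while 30M_220 was below 12M_208 and 20M_213 for Psmb10. For Psmb8, 8.05% of the 100-base stretches also occur in the antisense gene Gm20496, and 11.9% of the 50-base stretches in that or another gene.

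The constitutive subunits they replace did not pass the test, with means at 30M close to those at 6M. Psmb5 averaged 51.8 ± 7.19 CPM in the 6M and 51.2 ± 12.1 in the 30M libraries, Psmb6 90.6 ± 7.46 and 90.0 ± 16.5, and Psmb7 71.8 ± 4.98 and 78.8 ± 17.4 (SD, n = 3). Their log2 differences were -0.02, -0.01 and 0.13 (edgeR, adjusted p = 0.991, 0.991 and 0.866). Library 30M_220, with a GC trend, was the lowest 30M library for all 3. Psmb7 was at 88.2 and 89.5 CPM in 30M_216 and 30M_218, above the 6M libraries at 68.7 to 77.5. With a term in the fit for the 3 libraries with a GC trend the median log2 difference of the 3 genes was 0.17. None was then called and 1 had an unadjusted p under 0.05 (edgeR). Within a library, a ratio of the 2 forms needs no scaling between libraries. The log2 ratio of Psmb8 to Psmb5 was 0.57, -0.04 and 0.03 in the 6M libraries, 0.47, 0.50 and 0.61 at 12M, 0.45, 1.08 and 0.71 at 20M and 1.45, 1.30 and 1.58 at 30M. Every 30M library was above all 9 others, and 6M_201 lay among the 12M libraries. In counts, Psmb8 was 1.14 times Psmb5 at 6M and 2.72 times at 30M, a 2.39-fold rise in the ratio (exact permutation test over the 4 ages, p = 0.00221, adjusted over 6 ratios 0.00597). The ratio of Psmb9 to Psmb6 went from 0.444 to 0.940, 2.12-fold (exact permutation test over the 4 ages, p = 0.00299, adjusted 0.00597). That of Psmb10 to Psmb7 went from 0.808 to 1.18, 1.46-fold (exact permutation test over the 4 ages, p = 0.00240, adjusted 0.00597).

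The means of the 3 subunit ratios were ordered 6M, 12M, 20M, 30M, while the libraries of neighbouring ages under 30M overlapped. The 20M means include 20M_221 and 20M_222, which have a GC trend. In 20M_213 the log2 ratio of Psmb8 to Psmb5, 0.45, was below the 12M mean of 0.53. There Psmb9 to Psmb6 (-0.69) and Psmb10 to Psmb7 (-0.07) were above their 12M means (-0.83 and -0.21). Comparing only 6M and 30M, p was 0.1 for each by exact permutation, two-sided, the smallest that 3 against 3 allows. In 20M_221, 20M_222 and 30M_220 Psmb5 was at 38, 40.8 and 37.2 CPM against 44.6 to 63.5 elsewhere. Without these libraries the 3 ratios differed between 6M and 30M by 2.28-fold, 2.05-fold and 1.41-fold. That leaves 20M_213 alone at 20M, and 30M_216 and 30M_218 at 30M. That comparison was chosen after seeing the data.

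**Figure D2:**
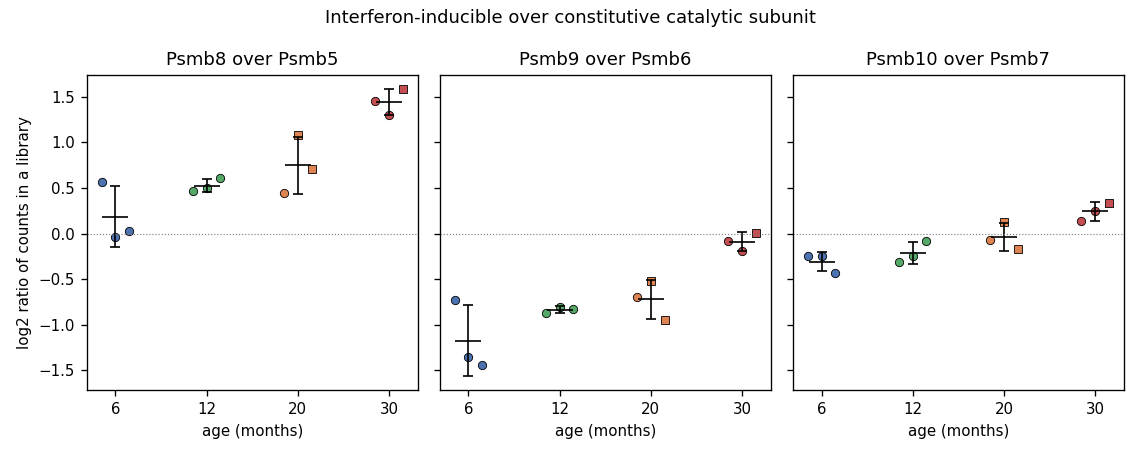
Log2 ratio of counts within each library, on the y axis, for Psmb8 over Psmb5, Psmb9 over Psmb6 and Psmb10 over Psmb7 at each age in months. Points are libraries, squares the 3 with a GC trend and bars mean ± SD of 3 libraries, and in each panel the 30M mean (1.44, -0.09 and 0.24) is the highest.

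Nlrc5, the coactivator, varied widely between libraries of 1 age at 6M and 12M. It was at 41.1, 20.1 and 26.1 CPM in the 6M libraries, 24.0, 35.5 and 16 at 12M, 40.9, 40.6 and 35.1 at 20M and 57.3, 54.5 and 74.7 at 30M. All 30M libraries were highest, and 6M_201 matched the 20M libraries. The log2 difference between 30M and 6M was 1.09 ± 0.28, 2.14-fold, among the larger ones but with the largest error of the 10 (edgeR, adjusted p = 0.0773). It passed in 3 of the 12 fits without 1 library: without 6M_201, with a log2 difference of 1.43, without 12M_207 and without 12M_208. On age in months as a straight line it passed, with a slope of 0.0504 ± 0.0112 log2 units per month (edgeR, adjusted p = 0.0259). That call was lost without 6M_202, 6M_203, 30M_216, 30M_218 or 30M_220, with a GC term, without the 3 libraries with a GC trend together and on log2 of months.

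Across the 4 ages all 10 genes were highest on average at 30M, and the middle ages came in 3 orders. Tap1, Tap2 and Tapbp were ordered 6M, 12M, 20M, 30M in CPM. With the GC trend removed the 12M mean of Tapbp was above its 20M mean. Its log2 levels over the 6M mean were then 0.17, 0.17 and 0.42 at 12M and 0.03, 0.19 and 0.15 at 20M. H2-K1, H2-D1, B2m, Psmb8, Psmb9 and Psmb10 had a higher mean at 12M than at 20M, and Nlrc5 was lowest at 12M. H2-K1 for example averaged 1140 ± 122, 1440 ± 185, 1370 ± 127 and 2180 ± 240 CPM from 6M to 30M, and Tap1 52.6 ± 14.6, 65.5 ± 8.31, 72.8 ± 6.67 and 125 ± 7.83. No difference between 12M and 20M passed: none of the 10 was called by edgeR, where 0% of genes were called, nor by DESeq2 (0.0489% of genes) or limma voom (0%), and only Nlrc5 had an unadjusted p under 0.05 (11.2% of genes). For none of the 10 did all 20M libraries lie above all 12M libraries, as 7.59% of tested genes did.

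The early and late steps were tested separately. At 12M against 6M none of the 10 was called by edgeR (0% of genes), by DESeq2 (0.0489%) or by limma voom (0%). An unadjusted p under 0.05 was reached by 4 of them, H2-D1, B2m, Tap2 and Psmb8, and by 3.6% of all genes. The log2 differences ran from -0.21 for Nlrc5 to 0.49 for Psmb8, with 9 above 0. In 5 of the 10 all 12M libraries were above all 6M libraries (6.3% of genes). At 20M against 6M none was called by edgeR (0.0163% of genes) or DESeq2 (0.304%), and 3 had an unadjusted p under 0.05 (7.8% of genes). Limma voom called 2, Tap1 and Tap2, and 4.22% of all genes, 351 as higher and 425 as lower. All 10 log2 differences were above 0, from 0.16 for Psmb10 to 0.52 for Tap2, and 3 genes did not overlap (7.77% of genes). At 30M against 20M none was called by edgeR (0.212% of genes), though 8 had an unadjusted p under 0.05 (8.89% of genes). DESeq2 called 6 of the 10 (1.73% of genes) and limma voom 3 (1.15%). The log2 differences were all above 0, from 0.25 for Tap2 to 0.82 for Psmb8, and 7 genes did not overlap (5.69% of genes). At 30M against 12M edgeR called Tap1 alone (0.712% of genes, 0.657% as higher and 0.0543% as lower), by 0.93 ± 0.18 in log2 (adjusted p = 0.0342). An unadjusted p under 0.05 was found for 8 (10.9% of genes), DESeq2 called 6 (2.74% of genes) and limma voom 2 (1.02%), and 7 of the 10 did not overlap (7.5% of genes). The call of Tap1 was lost without 12M_206, 12M_207, 12M_208, 20M_221, 30M_216, 30M_218 or 30M_220. These comparisons share libraries and are not independent of one another.

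The joint test over the 4 ages called 6 of the 10 (1.11% of all genes), H2-K1, B2m, Tap1, Tap2, Psmb8 and Psmb9. It called none without 30M_216 (0.451% of all genes) or 30M_218 (0.357%). It called 2 without 6M_202, 6M_203, 12M_206 or 20M_221 (0.509% to 0.985% of all genes) and 3 without 12M_207 or 20M_222 (0.838% and 0.938%). A slope on months was above 0 in all 10 and called in 7 (2.68% of all genes, 2.5% as higher), the same 6 and Nlrc5. It was called in 4 without 6M_202, 6M_203 or 30M_218 (1.94%, 1.24% and 1.53% of all genes). The steepest called slopes were those of Nlrc5 and Tap1, at 0.0504 and 0.0497 log2 units per month, and Tap1 had the smallest adjusted p (edgeR, 0.00189).

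**Figure D3:**
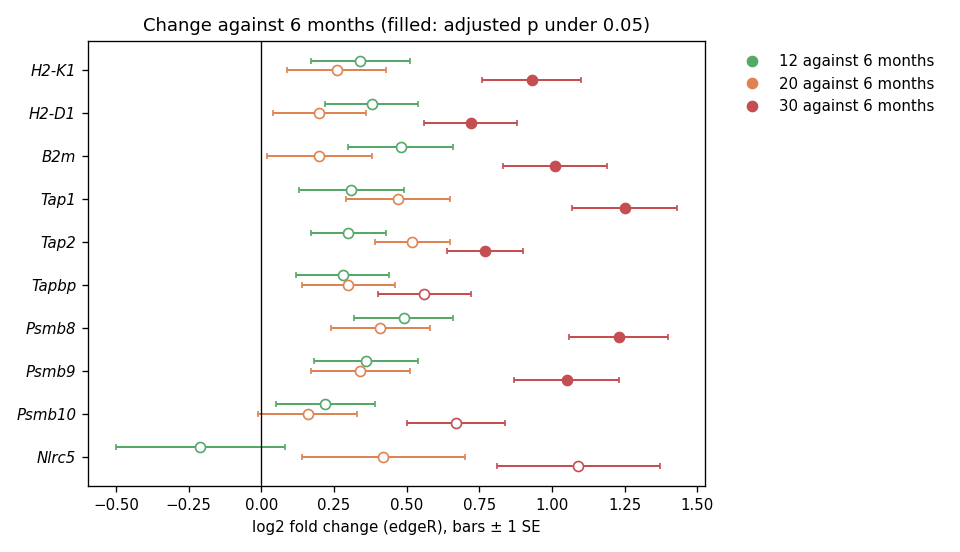
Log2 fold change against 6M on the x axis for each of the 10 genes at 12M, 20M and 30M, with bars of ± 1 SE from edgeR and filled points where the adjusted p was under 0.05. Filled points occur at 30M only, for 7 genes, and the sole value below 0 is Nlrc5 at 12M.

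The rest of the pathway was described from lists of its other components. Of 31 other proteasome genes, 3 constitutive catalytic subunits, 11 other subunits of the 20S core and 17 of the 19S regulatory particle, edgeR called none at 30M against 6M, none had an unadjusted p under 0.05, and DESeq2 and limma voom also called none. Their log2 differences ran from -0.2 for Psmc6 to 0.28 for Psma5, with a median of 0.02. With a term for the libraries with a GC trend the 11 core subunits had a median of 0.27 and 1 was called. Among 7 activators and assembly factors none was called by edgeR, DESeq2 or limma voom, none had an unadjusted p under 0.05 in edgeR and 1 had in limma voom, and the median log2 difference was 0.18. With the GC term 1 of the 7 was called, 3 had an unadjusted p under 0.05 and the median was 0.29. Psme1 and Psme2, which form the interferon-inducible activator of the core, had log2 differences of 0.42 ± 0.20 and 0.34 ± 0.25 (edgeR, adjusted p = 0.449 and 0.701).

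Of 9 genes for loading and trimming, none was called by edgeR, DESeq2 or limma voom, 1 had an unadjusted p under 0.05, and the median log2 difference was 0.01. That 1 was Tapbpl, a tapasin-like peptide editor, which went from 38.3 ± 1.18 to 49.8 ± 0.636 CPM (log2 difference 0.38, edgeR adjusted p = 0.167). Calr, the chaperone of the loading complex, differed by 0.28 ± 0.23, and Erap1, the peptidase that trims peptides in the endoplasmic reticulum, by 0.03 ± 0.16 (edgeR, adjusted p = 0.756 and 0.972). Hspa5 and Uggt1, which serve glycoprotein folding in general, differed by -0.2 and 0.09.

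**Figure D4:**
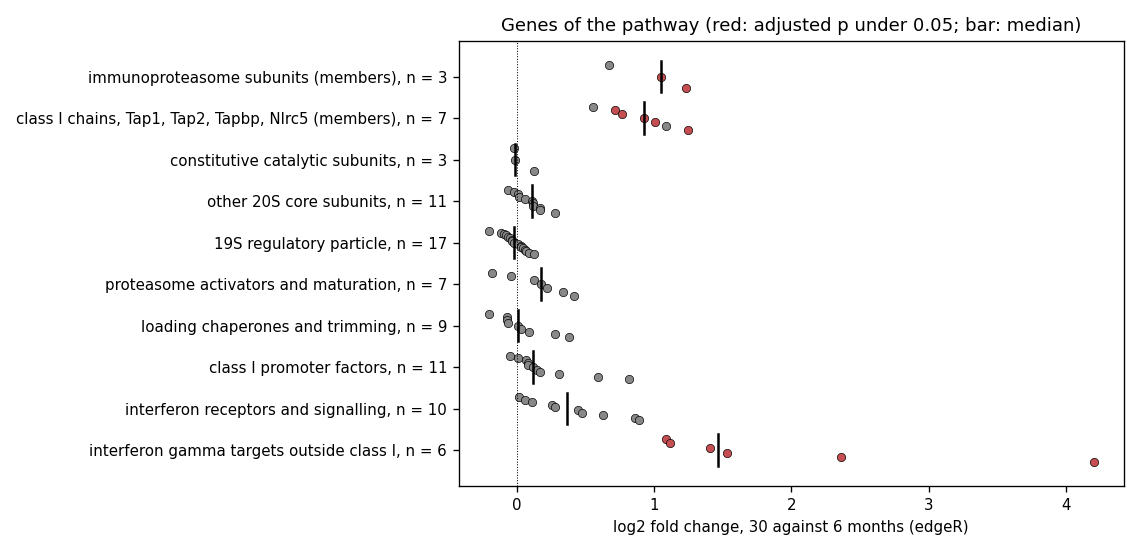
Log2 fold change at 30M against 6M (edgeR) on the x axis, 1 point per gene, for the 10 genes in 2 groups and 8 lists of the pathway, red where the adjusted p was under 0.05, with a bar at the list median. The 31 other proteasome genes lie between -0.2 and 0.28, whereas the immunoproteasome subunits lie between 0.67 and 1.23.

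Among 11 factors that act on class I promoters edgeR called none, 3 had an unadjusted p under 0.05, and DESeq2 and limma voom each called 1. Irf1, a factor for the interferon regulatory element, differed by 0.59 ± 0.18 (edgeR, adjusted p = 0.133) and Nfkb1 by 0.31 ± 0.14 (adjusted p = 0.382). Rfx5, whose protein binds the X box with Nlrc5, stayed at 33.6 ± 4.78 and 33.8 ± 2.78 CPM.

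Of 10 tested genes of interferon receptors and signalling edgeR called none at 30M against 6M, 5 had an unadjusted p under 0.05, and DESeq2 called 3 and limma voom 2. Stat2 came nearest, at 50.5 ± 2.56 and 93.7 ± 27.9 CPM (edgeR, adjusted p = 0.0519), followed by Irf9, its partner, at 0.63 ± 0.17 in log2 (adjusted p = 0.0871). Ifng itself had too few counts to be tested, 1 to 10 per library, and summed to 6, 14, 10 and 19 counts over the 3 libraries of 6M, 12M, 20M and 30M. Of the 10 signalling genes 10 had a log2 difference above 0, and Stat2 was called at 30M against 12M, jointly and on the slope (edgeR, adjusted p = 0.0295, 0.0476 and 0.0215). At 30M against 6M, 6 of 6 interferon gamma targets outside the class I pathway rose (edgeR), with a median log2 difference of 1.47. Gbp2, a guanylate-binding GTPase, went from 69.1 ± 9.32 to 183 ± 57.9 CPM and Igtp, an immunity-related GTPase, from 31.9 ± 5.71 to 92.1 ± 15.4 (adjusted p = 0.00640 and 0.00865). Ciita, the class II counterpart of Nlrc5, went from 22.1 ± 7.02 to 48.3 ± 16.4 CPM (edgeR, adjusted p = 0.0345). Cxcl9, a chemokine for activated T cells, went from 0.465 ± 0.343 to 8.80 ± 2.34 CPM (edgeR, adjusted p = 0.0300). Its 6M libraries were near the floor, at 0.746, 0.0825 and 0.566 CPM, where 1 CPM is a few more than 10 counts. The count of 6 fell to 1 without 6M_202, to 0 without 6M_203 and to 3 without 6M_201, 12M_207, 30M_216 or 30M_218. Of 6 receptors that read class I molecules, Pirb, an inhibitory receptor of myeloid and B cells, was called at 1.51 ± 0.34 in log2 (edgeR, adjusted p = 0.0413), and Cd8a was at 1.30 ± 0.36 (adjusted p = 0.0972). Pirb lost its call in 8 of the fits without 1 library.

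Markers of leukocytes, like the 10 genes, were highest on average at 30M, and their part in the results was not tested. The 5 leukocyte markers summed to 386 to 576 CPM at 6M, 503 to 624 at 12M, 427 to 696 at 20M and 894 to 1100 at 30M, none of them at 0 in any library, and 2 of 5, Coro1a and Laptm5, rose at 30M against 6M (edgeR, 0 of 5 without 6M_203, 1 without 6M_202, 30M_216 or 30M_218, 4 without 30M_220). Their median log2 level over the 6M mean in the 3 libraries of 30M was 1.16, 1.09 and 0.97, and that of the 10 class I genes 1.01, 1.01 and 0.80. Under 30M the medians of both lists did not always go together. Leukocyte markers were at 0.12 in 12M_208 and -0.26 in 20M_222, where the class I genes were at 0.46 and 0.16. In both libraries expression followed GC content (rho 0.226 and 0.462). With the GC trend removed the 10 genes ran from -0.89 (Nlrc5) to 0.92 (B2m) in 12M_208. In 20M_222 they then ran from -0.34 (Psmb10) to 0.43 (B2m). The leukocyte medians were not recalculated that way. In 20M_213 and 20M_221 leukocyte markers were at 0.49 and 0.41 and the class I genes at 0.39 and 0.41. The 6 markers of tissue macrophages summed to 143 to 173 CPM at 6M and 382 to 491 at 30M, and 5 of 6 rose, among them Adgre1 and the C1q genes, with Mrc1 not called. Of 5 T cell markers 2 rose, Cd3e and Cd3g, and the list summed to 38.8 to 57.2 CPM at 6M and 66.8 to 94.2 at 30M. That count was 0 without 6M_201, 6M_202, 6M_203, 12M_207 or 30M_218 and 1 without 30M_216 or 30M_220, whereas the macrophage count was 5 in each of these fits.

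Markers of the other cell types did not pass. None of the 5 endothelial markers was called, their sum being 1740 to 2060 CPM at 6M and 1940 to 2820 at 30M, nor any of 4 B cell, 4 NK and cytotoxic cell, 4 alveolar macrophage, 9 alveolar epithelium, 4 airway epithelium, 5 fibroblast, 4 smooth muscle or 4 tested skeletal muscle markers (edgeR). The B cell list had a median log2 difference of -0.28, with none at an unadjusted p under 0.05, and the alveolar epithelium list one of -0.37, with 4 of 9. The 30M libraries differed among themselves in both lists. In 30M_216, 30M_218 and 30M_220 the median log2 level over the 6M mean was -1.08, -1.23 and 0.87 for B cells. For alveolar epithelium it was -0.1, -0.41 and -0.68, lowest in 30M_220, which has a GC trend. DESeq2 called 1 gene over these 9 lists, an alveolar macrophage marker, and limma voom 1 of alveolar macrophages and 1 of fibroblasts, the latter lower.

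**Figure D5:**
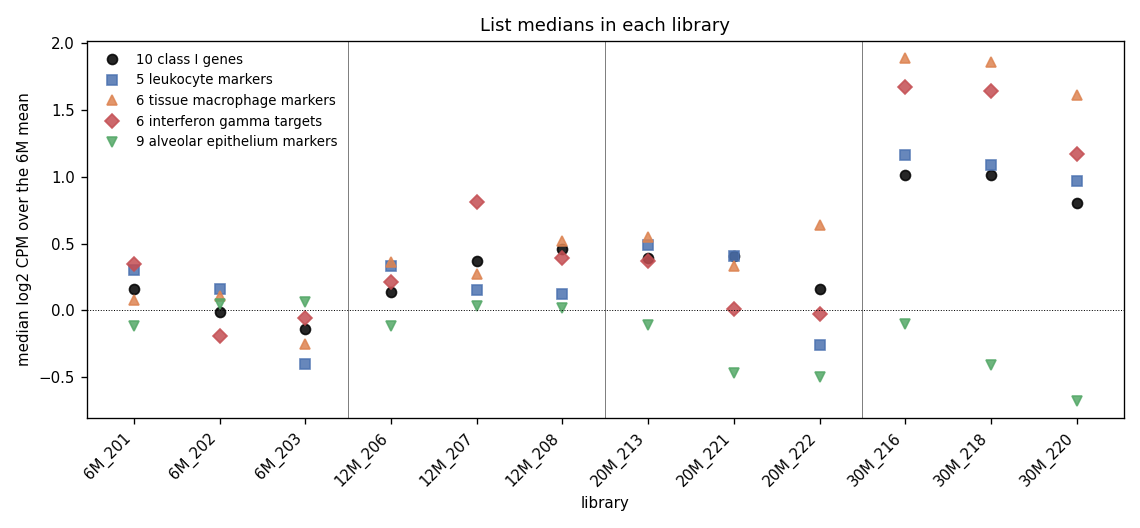
Median log2 CPM over the 6M mean, on the y axis, of the 10 class I genes, 5 leukocyte markers, 6 tissue macrophage markers, 6 interferon gamma targets and 9 alveolar epithelium markers in each of the 12 libraries on the x axis. The class I genes stand at 0.80 to 1.01 in the 30M libraries, beside leukocyte markers at 0.97 to 1.16.

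The 10 genes also followed one another from library to library. Over the 45 pairs Pearson's r of log2 CPM across the 12 libraries ran from 0.42 to 0.99 with a median of 0.82, and from 0.33 to 0.98 with a median of 0.84 after the GC trend was removed, values that share the libraries' ages. With Ptprc, the pan-leukocyte gene, r was highest for Nlrc5 (0.84) and Psmb9 (0.77) and lowest for H2-D1 (0.44) and Tapbp (0.33). Ptprc (78.2 CPM) and Nlrc5 (16 CPM) both had their lowest value in 12M_208. Correlations with the other leukocyte markers were not calculated. The 8 other genes most like the mean of the 10, among 17029 genes with at least 1 CPM, had r from 0.949 to 0.968 over the 12 libraries. They were Marcksl1, Clec4a1, Tnfrsf1b, Adgre1, H2-T23, Gm20496, Smpdl3b and Metrnl. H2-T23, a nonclassical class I gene, was at 185 ± 23.5, 235 ± 15.8, 220 ± 28.5 and 361 ± 45.9 CPM from 6M to 30M. Gm20496 overlaps Psmb8 and Tap2 on the other strand, and without strand the reads of the stretches it shares with them cannot be told apart. Clec4a1, a lectin receptor of myeloid cells, went from 5.92 ± 2.64 at 6M to 43.0 ± 3.32 CPM at 30M, with 10.5 ± 2.40 and 9.89 ± 2.39 between.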

How the data were processed

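Whole lung of 4 ages was measured in 12 libraries. The authors deposited whole-number read counts per gene, not normalized, and per the submitters' processing notes used FastQC 0.11.7, Trimmomatic 0.38, HISAT2 2.1.0 and featureCounts on GRCm38 (mm10). The annotation release was not given in the sources used here, nor was the strand setting. Antisense and overlapping genes therefore carry uncertain counts. Of the 55487 identifiers, 55227 are in GENCODE M21, 99.4% of them with the same start and end, and its transcripts gave exon lengths and GC content. No 2 libraries of 1 age were duplicates, with 7.14 to 54.4 of chi-square per gene for each pair. Totals of 12152066 to 15058628 counts put 1 CPM at a few more than 10 counts. Replicate numbers differ between all ages and pair nothing.

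Genes were tested in R 4.3.3 with edgeR 4.0.16 (quasi-likelihood, robust, TMM, filterByExpr by age), all 12 libraries in 1 fit and adjustment over 18407 tested genes. The common biological coefficient of variation was 0.236. Levels are CPM (counts per 1e+06, TMM scaled), log2 levels have a prior count of 2, and ratios are of counts with 0.5 added. The edgeR test was also tried on simulated counts with known changes and no GC trend, and its outcome is not used here. Alternatives were DESeq2 1.42.0, its size factors, limma 3.58.1 (voom with quality weights), other filters, a GC term or removed GC trend (lowess span 0.3), each library left out, only the 2 ages compared and log2 of months. Promoter windows are RefSeq's (GRCm38.p6). The 10 genes and the lists were chosen with earlier results of these data known, so no list's count is independent support. Named beside the 10 are fixed pathway genes, up to 4 of each pathway list by smallest p at 30M against 6M, up to 3 genes of a marker list, and the 8 genes closest in pattern by Pearson's r. Psma5, Psmc6, Acta1, Sftpc, Ptprc, H2-M3 and the overlapping antisense genes were named after their values were seen. The values of 1 gene of the promoter factor list are not reported here.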

Additional observations from a re-analysis of the deposited data

How the results depend on the processing

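No paired analysis was possible because the replicate numbers of the labels differ between all 4 ages. For the 10 genes at 30M against 6M, none of 210 alternative log2 differences changed sign, 178 kept their side of the threshold, 18 lost their call and 14 gained one. The count of called genes among the 10 ranged from 2 to 8 over the fits without 1 library, the low being without 6M_202 or 6M_203. At 20M against 6M limma voom called 2 and the fits without 1 library called 0. At 30M against 12M DESeq2 called 6, limma voom 2, no filter on low counts 2, a filter of 5 CPM in 3 libraries 2, a GC term 5, the 2 ages alone 0, and the fits without 1 library 0 to 2. At 30M against 20M DESeq2 called 6, limma voom 3, no filter 1, and the fits without 1 library 0 to 1, the 1 being without 30M_220. The joint test called 10 with limma voom, 2 without 20M_221, 20M_222 and 30M_220 together and 0 to 6 without 1 library. The slope called 4 to 10 without 1 library and 5 on log2 of months.

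Over all genes at 30M against 6M, where edgeR called 361, DESeq2 called 753 and limma voom 595, and the count was 217 without 6M_201, 121 without 6M_202, 69 without 6M_203 and 214 without 30M_218. At 30M against 12M (131) it was 504 with DESeq2, 281 with a GC term, 62 with the 2 ages alone and 0 to 156 without 1 library. At 30M against 20M (39) it was 319 with DESeq2, 211 with limma voom, 77 without a filter, 0 with the 2 ages alone or without the 3 libraries with a GC trend, and 0 to 78 without 1 library. At 20M against 6M (3) it was 56 with DESeq2, 776 with limma voom and 0 to 5 without 1 library, and at 12M against 6M and 20M against 12M (0) it was 9 with DESeq2 in each. The joint test (205) gave 788 with DESeq2, 1659 with limma voom, 316 without a filter and 67 to 285 without 1 library. The slope (494) gave 900 with DESeq2, 254 on log2 of months and 234 to 608 without 1 library. The causes of these differences were not tested. Without 1 library the log2 differences of the ratios between 30M and 6M were 1.14 to 1.45 (Psmb8 to Psmb5), 0.95 to 1.3 (Psmb9 to Psmb6), 0.49 to 0.6 (Psmb10 to Psmb7), 0.42 to 0.67 (Tap1 to Tap2), 0.14 to 0.29 (H2-K1 to H2-D1) and 0.14 to 0.23 (B2m to both chains).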
